A study of Rattus norvegicus with 120 samples.

Results

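The comparison was between 30 muscle-rich and 30 muscle-poor eye samples out of 120, chosen by the levels of 2 muscle genes on the same arrays, with 60 animals in neither group. Each sample was the RNA of both eyes of one F2 rat on 1 Affymetrix array. The rats were all 12-week-old males of an SR/JrHsd x SHRSP intercross, and none was treated. The muscle-rich and muscle-poor animals therefore shared strain origin, sex, age and tissue, and no label separated them. The 2 genes were Tnnc2, which codes for the troponin C of fast skeletal muscle, and Eno3, which codes for the muscle form of the glycolytic enzyme enolase. Sample titles carry an S number with 10 values and an L number with 22 values, whose meanings the labels do not give. The titles of 5 S numbers add a date, 1 for each of these S numbers, without saying what was done on it, and those of the other 5 add none. The S number was a factor in the fit, so the groups were compared within each such date. The mean of each S number was subtracted from the level of each gene, both were scaled to unit standard deviation, and their mean was the score of an animal. The 30 highest scores made up the muscle-rich group and the 30 lowest scores the muscle-poor group.

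Whole eyes can be taken with the stumps of the extraocular muscles, the striated muscles that move the globe. In striated muscle, troponin C binds calcium released from the sarcoplasmic reticulum, which lets myosin pull on actin. Extraocular muscle is known for an unusual mix of fibres, in which fast, slow, embryonic and neonatal myosins occur beside an eye-muscle myosin, Myh13. Skeletal muscle genes therefore tell of tissue at the outside of the globe, whereas rod, lens and pigment genes tell of tissue within it. In these bulk samples, less muscle tissue and less muscle RNA per cell cannot be told apart.

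The levels that chose the groups are a description and were not tested. After removal of the S number means, Tnnc2 had a lowest, median and highest level of 11.07, 11.16 and 11.29 in muscle-rich eyes, against 10.38, 10.77 and 10.89 in muscle-poor eyes, on the log2 scale. Eno3 had 10.55, 10.64 and 10.83 in muscle-rich eyes, against 9.82, 10.18 and 10.34 in muscle-poor eyes. Neither gene overlapped between the groups, as the choice of animals made likely. Over all 120 animals the 2 genes went together, with Pearson's r of 0.93 and Spearman's rho of 0.91 as a description of 1 probe set each on shared arrays. The scores had no gap at the borders. The lowest muscle-rich score was 0.737 and the next animal outside had 0.717, whereas the highest muscle-poor score was -0.677 and the next animal outside had -0.662. The score reached 1.89 at the upper end. Animal 5 at the lower end, with a score of -3.25, stood apart from the next, animal 63, with -2.14. The array of animal 63 stood apart by its values as well, with a 75th percentile of 7.11 and a median correlation of 0.937 with the other arrays, against at least 7.43 and 0.983 in the other muscle-poor eyes. In the fits, animal 63 was left out together with animal 15, which was in neither group, so counts without animal 63 leave out both. Where leaving out animal 5 or 63 in this way, with the groups chosen again, moved a count by over 1.5 times, that count is given too.

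**Figure D1:**
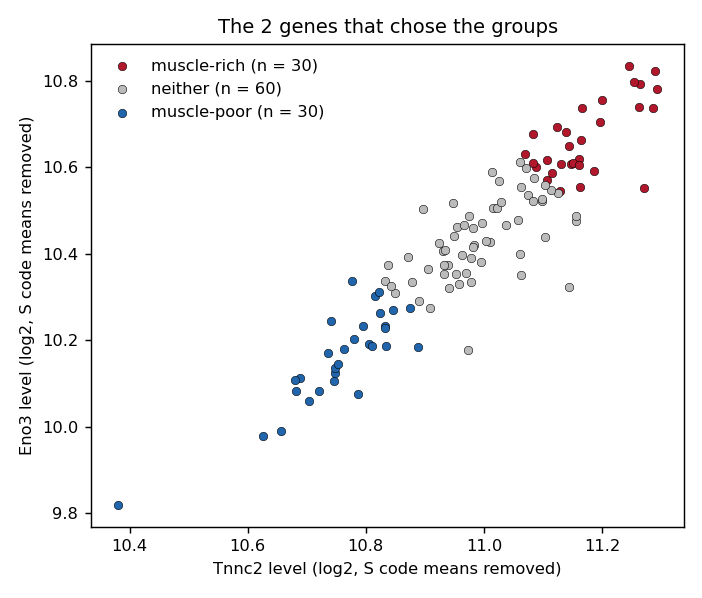
Level of Eno3 (y axis) against level of Tnnc2 (x axis), both on the log2 scale with S number means removed, for 30 muscle-rich, 60 other and 30 muscle-poor animals, 1 point an animal. The groups were cut from this plot, so their separation is not a result; animal 5 is the lowest point, at 10.38 for Tnnc2 and 9.82 for Eno3.

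To show the DNA next to the genes that carry the comparison, 250 bases upstream of the RefSeq start in GRCr8 are given for both score genes, for Casq1, the called muscle gene with the largest difference, and for Myh4, a fast myosin. Capitals mark a CAGCTG E-box, a MEF2 box or a CArG box, short motifs known from muscle promoters. The Tnnc2 stretch is chr3:173935340-173935589 on the minus strand, that of Eno3 chr10:55868936-55869185 on the plus strand, that of Casq1 chr13:87212711-87212960 on the minus strand and that of Myh4 chr10:52421898-52422147 on the plus strand.
Tnnc2: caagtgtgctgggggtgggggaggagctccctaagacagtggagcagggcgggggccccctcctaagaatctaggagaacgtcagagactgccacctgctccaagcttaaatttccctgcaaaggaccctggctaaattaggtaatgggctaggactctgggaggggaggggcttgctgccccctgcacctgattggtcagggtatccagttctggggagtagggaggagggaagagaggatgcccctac
Eno3: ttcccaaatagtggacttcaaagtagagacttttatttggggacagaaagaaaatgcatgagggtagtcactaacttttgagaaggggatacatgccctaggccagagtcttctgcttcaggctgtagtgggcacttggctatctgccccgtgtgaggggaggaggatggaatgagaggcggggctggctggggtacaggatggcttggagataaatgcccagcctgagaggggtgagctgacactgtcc
Casq1: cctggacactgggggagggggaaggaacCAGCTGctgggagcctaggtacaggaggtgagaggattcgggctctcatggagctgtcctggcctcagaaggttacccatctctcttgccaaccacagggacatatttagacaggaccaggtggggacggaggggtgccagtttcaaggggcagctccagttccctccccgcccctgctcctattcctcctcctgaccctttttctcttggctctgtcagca
Myh4: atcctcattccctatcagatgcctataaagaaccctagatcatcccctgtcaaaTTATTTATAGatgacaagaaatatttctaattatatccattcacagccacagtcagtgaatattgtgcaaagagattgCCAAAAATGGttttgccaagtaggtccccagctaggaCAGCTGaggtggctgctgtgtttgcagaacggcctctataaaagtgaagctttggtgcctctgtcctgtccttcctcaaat
In Casq1 the E-box began 222 bases before the start. In Myh4 the MEF2 box began 196 and the E-box 81 bases before it, with the CArG box between them. The 250 bases before Tnnc2 and Eno3 held none of these motifs. Among 76 such stretches of muscle-list genes that were higher in muscle-rich eyes, 29 held the E-box (38.2%), against 12.0% of all 33469 stretches. The MEF2 box was in 16 (21.1%), against 2.96% of all, and the CArG box in 5 (6.58%), against 1.5% of all. These 76 stretches came from 68 of the 83 called muscle genes, since the other genes had no match in the sequence table. Motifs were searched on both strands, and a match describes letters, not a bound site.

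Over all genes, the groups differed mainly in one direction. Of 12328 genes tested, 763 were higher in muscle-rich eyes (6.19%) and 19 were lower (0.154%), at an adjusted p under 0.05 in limma with the S number as a factor. Counted as probe sets, 1025 of 23336 were higher (4.39%) and 0.441% were lower. The higher probe sets were 1394 without animal 5 and 847 without animal 63. The median difference over all genes was 0.04 on the log2 scale. Since the groups were cut from 2 genes of the same arrays, each call says only that a gene's level went with these 2 genes.

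Array measures moved with the groups too. The actin 3′ minus 5′ difference, a sign of RNA and labelling quality, had a lowest, median and highest value of 0.85, 1.23 and 1.72 in muscle-rich eyes and of 0.82, 1.05 and 1.54 in muscle-poor eyes. After removal of S number means the groups differed by 0.09 on average (two-sided permutation test within S numbers, adjusted p = 0.0329 over 4 measures). For GAPDH the medians were 0.23 in muscle-rich and 0.13 in muscle-poor eyes, with an average difference of 0.09 (permutation test, adjusted p = 0.0127). The 75th percentile of an array was also higher in muscle-rich eyes, by 0.04 (permutation test, adjusted p = 0.0223) or, without animal 63, by 0.02 (permutation test, adjusted p = 0.0414), whereas the array median differed by 0.0012 (permutation test, adjusted p = 0.872). All 4 ranges overlapped between the groups. With both 3′ minus 5′ differences as covariates, 357 genes were higher (2.9%) and 1 was lower (0.00811%). With the L number as a further factor, 154 genes were higher (1.25%). Of the L numbers, 11 held both groups, 5 held muscle-rich animals only, 5 held muscle-poor animals only and 1 held neither. Every S number held 2 to 5 muscle-rich and 2 to 4 muscle-poor animals.

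**Figure D2:**
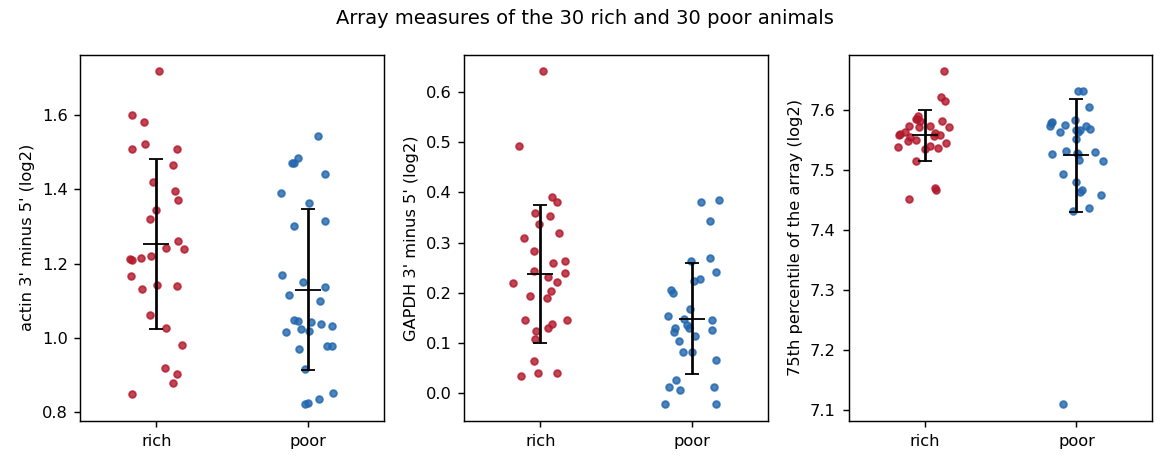
Actin and GAPDH 3′ minus 5′ differences and the 75th percentile of the array (y axes, log2), 1 point an animal, in 30 muscle-rich (left) and 30 muscle-poor eyes (right); bars are mean ± SD. The ranges overlap in each panel, and muscle-poor eyes reach down to 7.11 in the third.

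Striated muscle genes were higher in muscle-rich eyes as a group. Of the tested members of 8 muscle lists, 83 were higher, 31 did not pass and none was lower. The 83 were 72.8% of them, against 6.19% of all genes, and the median difference over the lists was 0.29. The difference was below 0 for 10 members, of which 2 had an unadjusted p under 0.05 (1.75% of the tested members, against 2.66% of all genes). With the 3′ minus 5′ covariates 77 were higher, and with the L number as a factor 64 were. Without animal 5 or without animal 63 the count was 83 in either case.

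The most alike gene to the score was Tnni2, the inhibitory troponin subunit of fast fibres, with r of 0.94 over 120 animals. Tnni2 levels in muscle-rich eyes were 10.96, 11.21 and 11.42 (lowest, median and highest), against 10.41, 10.76 and 10.93 in muscle-poor eyes. All 30 muscle-rich eyes were above the highest muscle-poor eye. The difference was 0.49 ± 0.03 (SE), a 1.40-fold change, with an adjusted p of 1.97e-18 in limma. The other genes most alike were Myl11 (the fast regulatory myosin light chain), Tnnt3 (fast troponin T), Tmod4 (a capping protein of thin filaments), Mybpc1 and Mybpc2 (slow and fast myosin-binding protein C), Ttn (titin), Pgam2 (muscle phosphoglycerate mutase), Cox6a2 (a muscle subunit of cytochrome oxidase) and Pvalb (a calcium buffer of fast fibres). Their r with the score lay between 0.86 and 0.94. Without the 2 animals farthest from the median score, r of Mybpc2 was 0.84. Within single S numbers, r of Pvalb lay between 0.57 and 0.96, and all these genes were chosen for this likeness, so no p is given.

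Fast fibre contractile genes were higher in 10 of 13 cases, against 6.19% of all genes, with a median difference of 0.38. Mybpc2 had 8.51, 8.75 and 9.10 in muscle-rich eyes, against 7.69, 8.28 and 8.48 in muscle-poor eyes, and no muscle-rich eye fell within the muscle-poor range. Its difference was 0.52 ± 0.04 (SE), with an adjusted p of 9.32e-14 in limma. Actn3, the fast-fibre alpha-actinin, differed by 0.51, Myh4, the myosin of the fastest fibres, by 0.45, and Myh2, a fast oxidative myosin, by 0.36. Acta1, skeletal actin, differed by 0.31. For Tnnt3 and Myl11, too, all 30 muscle-rich eyes were above the highest muscle-poor eye.

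Myh1, the myosin of an intermediate fast fibre type, did not pass. It had 9.69, 9.96 and 10.35 in muscle-rich eyes, against 9.38, 10.05 and 10.33 in muscle-poor eyes. The groups overlapped over almost their whole range, and the difference was -0.07 ± 0.04 (SE; adjusted p = 0.301 in limma). Its further tested probe sets all lay above 0, from 0.07 to 0.13, and none passed (lowest adjusted p = 0.0558 in limma). The probe set of second highest mean gave the 0.13. Myosin heavy chain genes are near-identical copies in part, so their probe sets may share signal. Mylk2, the skeletal myosin light chain kinase, had -0.05 and did not pass. Tpm2, a tropomyosin, had 0.10 and did not pass in the probe set of highest mean, whereas its other probe set was higher by 0.45 ± 0.03 (SE; adjusted p = 8.21e-17 in limma).

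**Figure D3:**
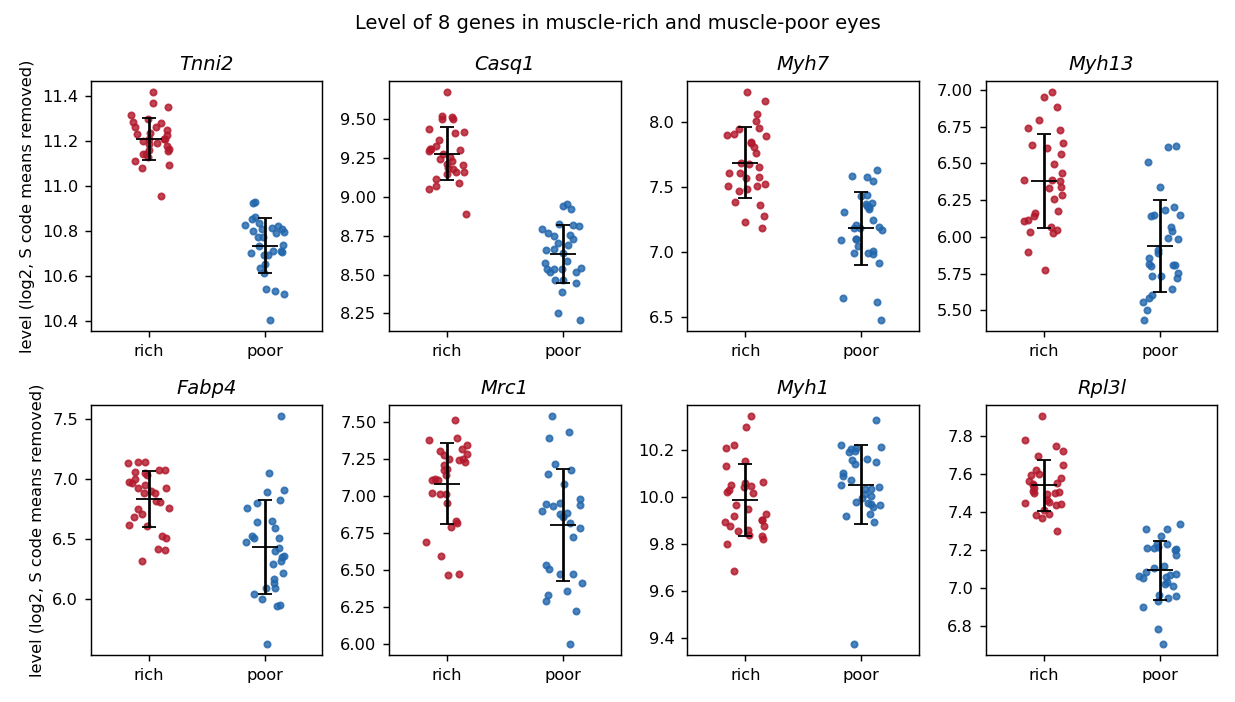
Levels (y axes, log2, S number means removed) of 8 genes, 1 point an animal, in 30 muscle-rich (left) and 30 muscle-poor eyes (right); bars are mean ± SD. Tnni2 does not overlap between the groups and Casq1 barely does. Myh1, in its probe set of highest mean with medians of 9.96 and 10.05, overlaps almost wholly.

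Slow fibre genes were higher in 8 of 11 cases, against 6.19% of all genes, with a median difference of 0.26. Myh7, the slow myosin heavy chain, had 7.18, 7.66 and 8.23 in muscle-rich eyes, against 6.47, 7.19 and 7.63 in muscle-poor eyes. The ranges overlapped, and the difference was 0.52 ± 0.07 (SE; adjusted p = 8e-07 in limma). Tnnt1, slow troponin T, differed by 0.44, Myl2, the slow regulatory light chain, by 0.34, Tnnc1, slow troponin C, by 0.34, and Tnni1, slow troponin I, by 0.26. Mybpc1 differed by 0.43, Myl3 by 0.22 and Casq2, the slow and cardiac calsequestrin, by 0.19. Tpm3 (0.08) and Atp2a2 (0.04), which many other cell types also use, did not pass in the probe set of highest mean. A further probe set of each was higher, by 0.28 for Tpm3 (adjusted p = 8e-07 in limma) and by 0.14 for Atp2a2 (adjusted p = 0.0195 in limma). Their other further probe sets, from -0.16 to 0.10 for Tpm3 and at -0.18 for Atp2a2, did not pass. Among the called slow genes, a further probe set of Tnni1 was higher (0.31), whereas those of Myh7 (0.23), Casq2 (0.07) and Myl2 (0.02) did not pass. The difference of the slow against the fast list was not tested.

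Among genes of eye muscle and developing fibres, 3 of 6 were higher, against 6.19% of all genes. All 3 were myosin heavy chains. Myh13, the eye-muscle myosin, had 5.77, 6.36 and 6.98 in muscle-rich eyes, against 5.44, 5.87 and 6.62 in muscle-poor eyes. The groups overlapped, with a difference of 0.44 ± 0.08 (SE; adjusted p = 0.000187 in limma) that was above 0 in each of the 10 S numbers. Myh3, the embryonic myosin, differed by 0.42 and Myh8, the neonatal myosin, by 0.34. The probe sets of these 3 myosins may share signal with those of Myh4 and Myh2, which were also higher, and this was not tested. Myl4 (0.0097), Myh14 (-0.08) and Chrng, the fetal acetylcholine receptor subunit (-0.07), did not pass.

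Of Z-disc, M-band and titin-associated genes, 24 of 26 were higher, against 6.19% of all genes, with a median of 0.30. Myot, a Z-disc protein, differed by 0.51, Ttn by 0.48, Ldb3, which anchors alpha-actinin, by 0.47, Neb, nebulin, by 0.47, Klhl41, a thin filament stabiliser, by 0.46, and Trim54 by 0.45. Ttn had 9.91, 10.16 and 10.46 in muscle-rich eyes, against 9.49, 9.70 and 9.95 in muscle-poor eyes. Of the muscle-rich eyes, 28 were above the highest muscle-poor eye.

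Calcium handling and excitation-contraction coupling held the largest differences of the muscle lists. Of 18 members 16 were higher, against 6.19% of all genes, with a median of 0.38. Casq1, the calcium store protein of the fast sarcoplasmic reticulum, had 8.89, 9.27 and 9.67 in muscle-rich eyes, against 8.21, 8.65 and 8.95 in muscle-poor eyes. Only the ends of the ranges met. Its difference was 0.66 ± 0.05 (SE), a 1.57-fold change, with an adjusted p of 9.56e-16 in limma. Trdn, triadin of the calcium release complex, differed by 0.61, Srl, sarcalumenin, by 0.53, Hrc, a calcium-binding protein of the reticulum, by 0.52, Ryr1, the calcium release channel, by 0.49, and Pvalb by 0.47. Atp2a1, the fast calcium pump, differed by 0.44 and Cacna1s, the voltage sensor, by 0.34. The members that did not pass were Cacnb1 (-0.06) and Clcn1, the muscle chloride channel (-0.04).

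Muscle energy genes were higher in 17 of 22 cases, against 6.19% of all genes, with a median of 0.25. Ckmt2, the mitochondrial creatine kinase of muscle, differed by 0.49, Pgam2 by 0.48, Slc2a4, the insulin-responsive glucose transporter, by 0.47, Adss1, the muscle adenylosuccinate synthase, by 0.47, Cox8b by 0.46 and Pygm, muscle glycogen phosphorylase, by 0.45. Mb, myoglobin, differed by 0.43 and Ckm, muscle creatine kinase, by 0.41. Ckm had 10.88, 11.49 and 11.74 in muscle-rich eyes, against 10.27, 11.07 and 11.29 in muscle-poor eyes. Its ranges overlapped. Aldoa, a glycolytic enzyme of many tissues, differed by 0.09 and passed, whereas Ldha (0.03) did not. Cox7a1, a heart and muscle subunit of cytochrome oxidase, had the lowest difference of the 8 muscle lists, at -0.19 ± 0.10 (SE; adjusted p = 0.213 in limma).

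In the lists of the neuromuscular junction and of the regulators of muscle cells, 5 of 18 tested genes were higher, against 6.19% of all genes. Of 7 tested junction genes 1 was higher, Chrna1, an acetylcholine receptor subunit, by 0.17 (adjusted p = 0.0064 in limma), and it did not pass without animal 63. Lrp4, the agrin receptor, had 0.11 and Chrnb1 had 0.11, and neither passed. Of 11 tested regulators and structural genes of muscle and satellite cells, 4 were higher. They were Myf6, a muscle transcription factor of mature fibres (0.47), Des, the intermediate filament desmin (0.38), Sgca, a sarcoglycan (0.30), and Mef2c, a transcription factor that other cell types also hold (0.18). Myog (0.09), Dmd, dystrophin (-0.12), and Pitx3, which the lens also uses (-0.19), did not pass. In these lists, 7 of 33 genes were below the filter on low values and 8 had no probe set.

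**Figure D4:**
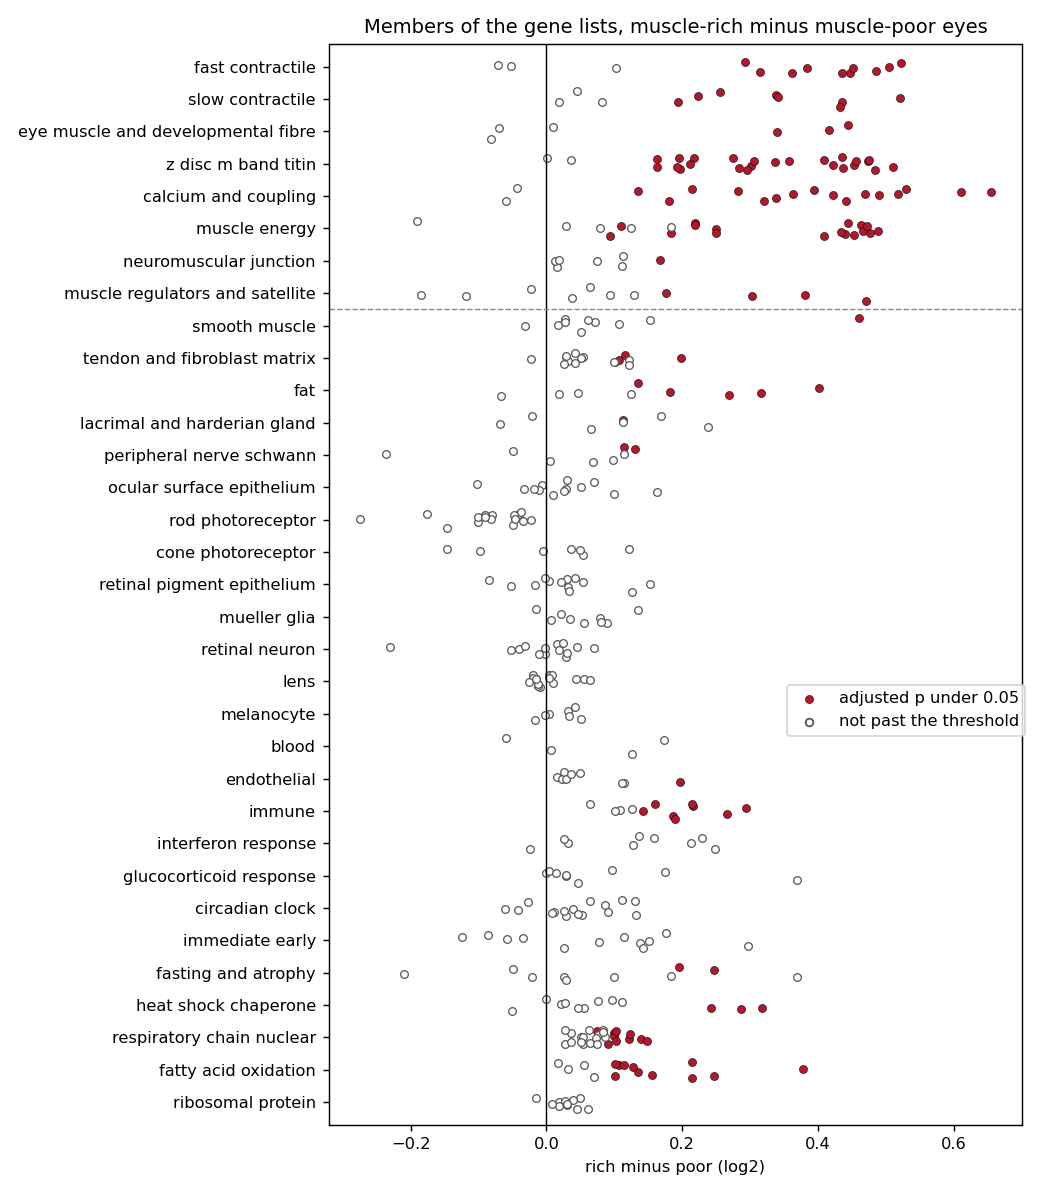
Difference between muscle-rich and muscle-poor eyes (x axis, log2) for each tested member of 33 gene lists (rows), 1 point a gene; filled points have an adjusted p under 0.05 in limma and the dashed line separates the 8 muscle lists from the others. Filled points lie up to 0.66 in the muscle lists, and the rod list lies below 0 with no filled point.

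The 60 animals in neither group gave samples that the comparison did not use, although their score came from the same 2 genes. In these animals, 31 genes rose with the score (0.251%) and none fell (0), at an adjusted p under 0.05 in limma. At an unadjusted p under 0.05, 435 rose and 214 fell. All 31 genes were also higher in muscle-rich than in muscle-poor eyes, and 23 were members of the muscle lists. Of the tested muscle members, 100 had a slope above 0 and 14 below, with a median of 0.11 per unit of score, against a median of 0.0096 over all genes. Mybpc2 had the steepest slope of the 31, at 0.29 ± 0.04 (SE; adjusted p = 1.69e-05 in limma), and Casq1 followed with 0.28 ± 0.05 (SE; adjusted p = 0.0064 in limma). Of the 8 genes outside the muscle lists, Mybphl codes for a relative of myosin-binding protein H, Dhrs7c for a reductase of the sarcoplasmic reticulum, Scn4b for a sodium channel subunit, Rpl3l for a muscle ribosomal protein, Coq8a for a kinase-like protein of coenzyme Q synthesis, and Hspb6 for a small heat shock protein. The other 2 were Tmod4 and Hivep2. Of the 11 slow genes 10 had a slope above 0, with a median of 0.11, and 6 rose at an unadjusted p under 0.05 in limma. At an adjusted p under 0.05 1 rose, Mybpc1, while Myh7 had a slope of 0.20 ± 0.09 (SE; adjusted p = 0.973 in limma). Of the junction genes, 2 of 7 had a slope above 0.

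**Figure D5:**
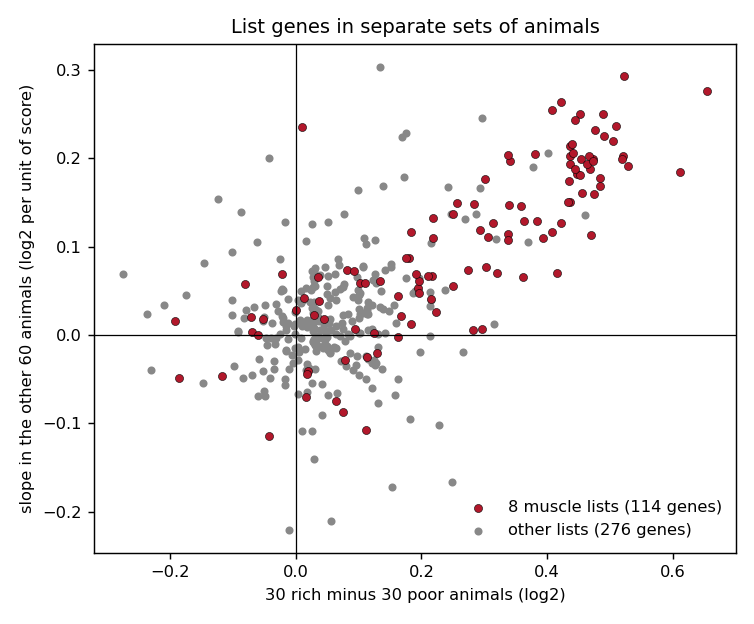
Slope with the score in the 60 animals of neither group (y axis, log2 per unit of score) against the difference between 30 muscle-rich and 30 muscle-poor animals (x axis, log2), 1 point a gene, for the tested genes of the 8 muscle lists and 276 genes of other lists. Muscle genes spread to 0.66 on the x axis and 0.29 on the y axis, while most other genes lie near 0 on both.

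Among all genes, the 15 largest rises included 5 members of the muscle lists (Casq1, Trdn, Srl, Mybpc2 and Myh7) and several other genes known from muscle. Ppp1r3a, which targets a phosphatase to muscle glycogen, had 6.76, 7.08 and 7.55 in muscle-rich eyes, against 6.01, 6.46 and 6.92 in muscle-poor eyes. The ranges met only at their ends, and the difference was 0.63 ± 0.06 (SE; adjusted p = 3.38e-12 in limma). Ky, a muscle peptidase, differed by 0.62. A further probe set of Ky with a like mean level (6.72, against 6.73) differed by 0.11 and did not pass (adjusted p = 0.212 in limma). Scn4b differed by 0.57, Hjv, an iron regulator made in muscle and liver, by 0.54 and Mybphl by 0.53. Ano5, a membrane protein whose loss causes muscular dystrophy in humans, differed by 0.52. The largest single difference was that of Stfa3, a stefin of a family of near-identical copies that may share probes, with 1.21 ± 0.32 (SE; adjusted p = 0.0173 in limma). Stfa3 spread widely in both groups, with 7.04, 9.45 and 11.51 in muscle-rich eyes and 6.16, 8.08 and 11.21 in muscle-poor eyes. With the 3′ minus 5′ covariates its adjusted p was 0.0545. Rnf6 (0.55), Cnmd, a cartilage and tendon protein (0.54), and Cytl1 (0.54) also did not pass with these covariates, at adjusted p values of 0.0512, 0.359 and 0.232.

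The 19 lower genes were mixed by name, with some known from synapses and neurons among them. The lowest was Pde10a, a phosphodiesterase, with 4.49, 5.57 and 7.36 in muscle-rich eyes, against 4.72, 6.43 and 8.02 in muscle-poor eyes. The ranges overlapped almost wholly, and the difference was -0.84 ± 0.20 (SE; adjusted p = 0.0074 in limma). Slc17a7, the glutamate transporter of synaptic vesicles in photoreceptors and other neurons, differed by -0.24, Rasgrf2 by -0.22, Pacsin1, a neuronal endocytosis protein, by -0.21, Svop, a synaptic vesicle protein, by -0.19 and Anks1b by -0.18. Dnmt3a (-0.32), Arid5b (-0.24), Kcne2 (-0.22), Arhgef11 (-0.20), Slc28a3 (-0.20), Oscp1 (-0.18), Stard7 (-0.17), Robo1 (-0.17) and Grap2 (-0.16) completed the 15 largest. Further probe sets of Pde10a (-0.62), Pacsin1 (-0.49) and Slc17a7 (-0.29) were also lower. Those of Anks1b (0.05 and 0.04), Dnmt3a (-0.09) and Kcne2 (-0.04) did not pass. With the 3′ minus 5′ covariates 1 gene was lower, Oscp1, and in the 60 other animals none was. The probe sets called lower were 57 without animal 63 and 299 without animal 5, against 0.441% of 23336 with both.

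Genes outside the muscle lists moved in part. There were 25 other lists, of tissues around and within the globe, of metabolism and of cell states. Of their 276 tested genes not shared with the muscle lists, 45 were higher (16.3%, against 6.19% of all genes) and none was lower. The fatty acid oxidation list held 11 of these calls, the respiratory chain list 10 and the heat shock list 3. At an unadjusted p under 0.05, 82 were higher (29.7%, against 23.3% of all genes) and 10 lower (3.62%, against 2.66% of all genes). With the 3′ minus 5′ covariates 32 were higher, with the L number as a factor 10, and in the 60 other animals 1 rose. Of 9 fat genes 5 were higher, against 6.19% of all genes. Fabp4, the fatty acid binder of fat cells, had 6.32, 6.89 and 7.14 in muscle-rich eyes, against 5.63, 6.41 and 7.52 in muscle-poor eyes. Its difference was 0.40 ± 0.09 (SE; adjusted p = 0.0015 in limma), and the highest single value was that of a muscle-poor eye. Car3, which both fat and muscle use, differed by 0.32, Cfd, adipsin, by 0.27, Adipoq, adiponectin, by 0.18 and Lpl by 0.14. The mean level of the fat list ran from 6.27 to 6.66 in muscle-rich eyes and from 6.11 to 6.55 in muscle-poor eyes. With the 3′ minus 5′ covariates 2 fat genes were higher, with the L number as a factor 1, and no fat gene was called in the other 60 animals.

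Of 12 immune genes 8 were higher, against 6.19% of all genes. The count was 5 without animal 63 and 3 with the 3′ minus 5′ covariates. Mrc1, a receptor of resident macrophages, had 6.47, 7.16 and 7.51 in muscle-rich eyes, against 6.0, 6.87 and 7.54 in muscle-poor eyes. The groups overlapped widely, and the difference was 0.29 ± 0.09 (SE; adjusted p = 0.0339 in limma). The mean level of the immune list ran from 7.11 to 7.56 in muscle-rich eyes and from 6.95 to 7.43 in muscle-poor eyes. Cd163 differed by 0.27, Ptprc by 0.22, Aif1 by 0.21, Fcer1g by 0.19 and C1qc by 0.19. With the L number as a factor none of the 12 passed, and none was called in the other 60 animals. At an unadjusted p under 0.05, 11 of the 12 were higher, against 23.3% of all genes.

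Connective tissue, nerve, vessels and smooth muscle gave few calls, to be read beside the 6.19% of all genes that were higher. A single call in a list of 7, 9 or 10 genes is little above that share. In the matrix list 3 of 16 were higher, Col3a1 (0.20), Postn (0.12) and Fbn1 (0.11). Of 10 smooth muscle genes 1 was higher, Synpo2 (0.46), a Z-disc protein that striated muscle also holds, whereas Actg2, smooth muscle actin, had 0.15 and did not pass. The 2 of 8 nerve genes that were higher, Cnp (0.13) and Pmp22 (0.11), did not pass with the 3′ minus 5′ covariates, and 1 nerve gene was higher without animal 5 and 1 without animal 63. Mbp, a myelin gene, had -0.24 with an adjusted p of 0.14 in limma. Of gland genes 1 of 7 was higher, Slc12a2 (0.11), and none was without animal 63. Scd, which had single high animals, had 0.24 and did not pass. Of 9 endothelial genes 1 was higher, Pecam1 (0.20), or 2 without animal 5, and Tek had 0.11 without passing.

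The lists of tissues within the globe gave no call in either direction in the probe set of highest mean with all 60 animals. Without animal 5, 1 glial gene was higher, Vim, by 0.09 (adjusted p = 0.0221 in limma). Genes outside the lists are not covered by this, such as Slc17a7 of photoreceptors and other neurons, which was lower (-0.24). The lists were rods (16 genes), cones (7), pigment epithelium (13), Müller glia (9), retinal neurons (14), lens (15), melanocytes (7) and the ocular surface epithelium (13). All 16 rod differences were below 0, from -0.27 to -0.02, with a median of -0.08. Of these 16, 7 had an unadjusted p under 0.05 in limma, against 2.66% of all genes that were lower at that threshold. Pde6a, the catalytic subunit of the rod phosphodiesterase, had 8.48, 9.28 and 9.93 in muscle-rich eyes, against 8.41, 9.62 and 10.52 in muscle-poor eyes (adjusted p = 0.157 in limma). Of 26 further probe sets of genes in these lists 1 was called, a probe set of Cngb1, a rod channel subunit, which was lower at -0.32 (adjusted p = 0.003 in limma). In the 60 other animals 12 of the 16 rod slopes were above 0, and no rod slope had an unadjusted p under 0.05 in either direction. At an unadjusted p under 0.05, 2 surface and 2 glial genes were higher and 1 retinal neuron gene was lower, against 23.3% higher and 2.66% lower of all genes. The cone, pigment epithelium, lens and melanocyte lists had none. The largest differences elsewhere, none of which passed, were -0.23 for Syt1 of retinal neurons, 0.16 for Krt19 of the surface epithelium, 0.15 for Rdh5 of the pigment epithelium, -0.15 for Cnga3 of cones, 0.13 for Gfap of glia, 0.06 for Gja3 of lens and 0.05 for Mitf of melanocytes.

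Of genes of fatty acid oxidation and the respiratory chain, which muscle uses heavily, 21 of 41 were higher, against 6.19% of all genes. In the fatty acid list they were 11 of 15, led by Cd36, a fatty acid transporter (0.38), Cpt1b, the muscle form of carnitine palmitoyltransferase (0.25), Acadl (0.21) and Etfdh (0.21). Cd36 had 6.19, 6.78 and 7.35 in muscle-rich eyes, against 5.90, 6.43 and 6.68 in muscle-poor eyes, with overlapping ranges. In the respiratory chain list 10 of 26 were higher, all 26 differences were above 0, and the largest was that of Uqcrfs1 (0.15). With the 3′ minus 5′ covariates 8 and 11 passed in the fatty acid and respiratory lists, and with the L number as a factor 2 and 3 did. Hspb3 (0.32), Hspb8 (0.29) and Hspb6 (0.24) were the heat shock genes that were higher, of 12 tested and against 6.19% of all genes. All of them are small heat shock proteins known from muscle.

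State markers did not pass. The interferon (9 genes), glucocorticoid (9), clock (16), immediate early (12) and ribosomal (11) lists had no call in either direction in limma. At an unadjusted p under 0.05, 0, 2, 2, 0 and 3 of their members were higher and none was lower, against 23.3% higher and 2.66% lower of all genes. The largest differences were 0.25 for Mx1 of the interferon list, 0.37 for Pdk4 of the glucocorticoid list, 0.13 for Nfil3 of the clock list, 0.30 for Atf3 of the immediate early list and 0.06 for Rpl5 of the ribosomal list. Alas2 of the blood list had 0.17, and none of its 4 genes passed. In the fasting list 2 of 10 were higher, against 6.19% of all genes. They were Cpt1b and Trim63 (0.20), and Trim63 is also a muscle M-band gene.

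Where a called muscle gene had further probe sets, these did not always follow. For 18 such genes there were 27 further tested probe sets, of which 9 were higher, none was lower and 5 had a value below 0. Of the 31 muscle genes that did not pass, 10 had 24 further probe sets, of which 4 were higher and none was lower, those of Tpm2, Tpm3, Atp2a2 and Ucp3 (0.17). Apart from the counts given with the 3′ minus 5′ differences or the L number in the fit, the part of the array measures in the calls was not tested.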

How the data were processed

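The authors deposited log2 values made by RMA, per the submitters' processing notes, for 31099 probe sets on each of 120 arrays. The build and annotation behind the values are not given in the sources used here. Probe sets were named from the platform annotation and RefSeq gene names (20826 had 1 symbol, 436 several and 9780 none), with the probe set of highest mean standing for a gene. Array medians lay between 5.78 and 5.96, and the number of arrays, not reads, limits precision.

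The filter kept probe sets whose mean reached 4.28 (25th percentile of all values), and these were fitted with limma 3.58.1 in R 4.3.3 (lmFit, eBayes) with group and S number as factors. The 2 probe sets of Tnnc2 and Eno3 were left out, which left 23336. P-values were adjusted by Benjamini-Hochberg over these. In the 60 other animals the same fit took the score as a slope. Levels printed per animal had S number means removed and the overall mean added. The fit was checked on simulated data, in which 200 probe sets were given a known difference. It called 0.5% of these at a difference of 0.1, 65.5% at 0.2 and 98.0% at 0.4. False calls were 0, 4 and 12 in that order. A list without a call may therefore hold small differences.

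The rule for the groups, the gene lists and the tests were chosen with earlier results of these data known. Genes named were the 15 of largest difference in each direction, up to 6 called members of each list or, with under 3 called, the largest not called, the members whose fibre type role is described, and the 10 most alike to the score. Alternatives changed the S number term, the filter, the group size, the score, the probe set and the covariates. They also left out rescanned arrays, animal 5, or animals 63 and 15 together.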

Additional observations from a re-analysis of the deposited data

How the results depend on the processing

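Calls in the muscle lists ranged from 64 to 88 over the alternatives, against 83, and the slope over 120 animals also called 1 muscle gene, Pitx3, lower. The count of higher probe sets (1025) was 319 with no S number, 682 with groups of 20, 3266 with a slope over 120 animals, 618 and 1883 with Tnnc2 or Eno3 alone, 473 with the 3′ minus 5′ covariates, 193 with the L number and 447 at a threshold of 0.01. The count of lower probe sets (0.441% of those tested) was 12, 62, 959, 32, 793, 7, 1 and 13 under the same alternatives in that order. It was 200 with S means subtracted first, 50 with a filter at the median, 57 without the rescanned arrays (of which only animal 63 was in a group), 37 with groups of 40 and 299 without animal 5. The 45 calls in the other lists were 17 with no S number, 78 with the slope, 10 with the L number and 29 at 0.01. In the other 60 animals, 36 probe sets rose and 1 fell; with no S number 23 rose and 0 fell, at 0.01 22 rose and 0 fell, and 2 fell with no filter or with the covariates. The cause of these moves was not tested; fewer animals or a stricter threshold also lower the counts by construction.

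Of the called genes among those named, 50 did not pass with the L number, 32 with the 3′ minus 5′ covariates, 39 with no S number, 22 with Tnnc2 alone, 21 with groups of 20, 16 with groups of 40, 16 without animal 63, 5 with Eno3 alone, and 2 each with the slope, with array medians subtracted and without animal 5. With the probe set of second highest mean, 14 of 29 did not pass and 5 more changed sign: Aif1 (-0.000119), Anks1b (0.0416), Cs (-0.0132), Mef2c (-0.16) and Pmp22 (-0.022). The other changes of sign were in genes that did not pass: with that probe set Gja3 (-0.19), Mbp (0.16), Mitf (-0.11), Myh1 (0.13) and Pdk4 (-0.0048); with the L number Mx1 (-0.0467), Fabp5 (0.0095) and Phkg2 (-0.0238); with groups of 40 Fabp5 (0.00056); with groups of 20 Actn4 (0.0235) and Slc2a1 (-0.0145); with the covariates Actn4 (0.0249) and Slc2a1 (-0.0102); with Tnnc2 alone Gfap (-0.002) and Slc2a1 (-0.0129); with no S number Phkg2 (-0.0032) and Slc2a1 (-0.0135); without animal 63 Slc2a1 (-0.0076); and with array medians subtracted Slc2a1 (-0.000322). The labels give the animals no replicate numbers that pair them, and the S number, each of which holds both groups, was the factor within which they were compared.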

Other observations

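Muscle forms of widely used proteins can be set beside their partners, 13 pairs that were chosen after values of these data had been seen. In the probe set of highest mean, all 13 muscle forms were higher in muscle-rich eyes, against 6.19% of all genes, which the late choice of pairs made likely. No partner passed in limma, in the probe set of highest mean of each gene, and at that share few would. Cox7a1, a heart and muscle subunit of cytochrome oxidase that did not pass (-0.19), was not among the pairs. Of 3 further probe sets of the partners 1 was higher, that of Atp2a2 (0.14; adjusted p = 0.0195 in limma). Among the muscle forms, further probe sets of Pygm (0.22 and 0.38) and Adss1 (0.19) were higher. Those of Pfkm (0.08 and -0.05) and Slc2a4 (0.12) did not pass. Rpl3l, the muscle paralog of a ribosomal protein, had 7.30, 7.52 and 7.90 in muscle-rich eyes, against 6.71, 7.07 and 7.34 in muscle-poor eyes, a difference of 0.46 ± 0.04 (SE; adjusted p = 1.21e-13). Rpl3, its counterpart in most cells, differed by 0.02 ± 0.02 (SE; adjusted p = 0.566). Cox6a2 differed by 0.44 and Cox6a1 by 0.03, Cox8b by 0.46 and Cox8a by 0.04, and Pgam2 by 0.48 and Pgam1 by -0.01. Pygm differed by 0.45 and Pygb by 0.04, Adss1 by 0.47 and Adss2 by 0.07, and Ckm by 0.41 and Ckb by 0.06. Actn3 differed by 0.51 and Actn4 by -0.06, Atp2a1 by 0.44 and Atp2a2 by 0.04, and Slc2a4 by 0.47 and Slc2a1 by 0.00091. Atp2a2 is also a member of the slow fibre list, so that pair does not set muscle against other tissue alone. The smallest differences of the muscle forms were 0.25 for Fabp3, 0.22 for Phkg1 and 0.22 for Pfkm, beside -0.01 for Fabp5, 0.02 for Phkg2 and -0.06 for Pfkl. The difference within a pair was not tested.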
